A study of Mus musculus with 6 samples.

Results

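The genes described here were 10 transcription factors that build the lung's cell lineages in the embryo and mark them in the adult: Nkx2-1, Foxa1, Foxa2, Sox2, Sox9, Gata6, Foxp2, Foxf1, Tbx5 and Gli1. They were taken by symbol from a table of read counts with 49568 gene symbols. All 10 were present in the table, and all 10 were among the 19199 genes that passed a filter on low counts and were tested. Whole lungs were compared between 3 mice of the TNF-Tg line, which overexpress 1 copy of the human TNF gene, and 3 wild-type (WT) littermates, with 1 poly(A) RNA library per mouse. All 6 mice were female, 4 months old and on the C57BL/6 background. The promoter that drives the transgene and the cells that express it were not given in the sources used here, and the human transcript was not measured here. The comparison addressed how the lung differs under lasting overexpression of TNF, an inflammatory cytokine, in a mouse that develops arthritis and disease of the lung vessels.

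Lung identity is laid down when part of the foregut endoderm switches on Nkx2-1, while the surrounding mesoderm expresses Foxf1 and Tbx5. Foxa1 and Foxa2 are pioneer factors that open chromatin at epithelial genes, Sox2 marks the conducting airways and Sox9 the tips of the growing branches, and Gata6 and Foxp2 act in the distal epithelium. Epithelial cells secrete the ligand Sonic hedgehog, and the mesenchyme answers through Gli1, a target and effector of that signal. Many of these factors stay on in the adult, where Nkx2-1 and the Foxa factors maintain surfactant and secretoglobin genes and Foxf1 maintains capillary endothelium and fibroblasts.

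The libraries held 25396923 to 30049463 counted reads in the TNF-Tg lungs and 31400978 to 32529408 in the WT lungs. The mouse gene Tnf, which is not the transgene, was counted 106, 213 and 405 times in the TNF-Tg lungs and 16, 14 and 35 times in the WT lungs. It was higher in every TNF-Tg lung (log2 fold change 3.62, SE 0.46). Whether reads of the human transgene were counted there was not tested. A pair of lungs stood apart. In TNF-Tg 1, the gene model Gm42418 took 5.22% of all reads against 0.0774% to 0.274% elsewhere. WT 1 held RNA of squamous epithelium and skeletal muscle, with 10 squamous markers summing to 3693 CPM (counts per 1000000 reads, with each library's total scaled by TMM) against at most 33.2 in the other lungs, and 8 skeletal muscle markers to 2083 against at most 54.1. Markers of cell types also differed between the genotypes. Of 12 leukocyte markers 10 were higher in TNF-Tg (adjusted p below 0.05, edgeR), beside 24.0% of all tested genes, and their sum was 9075 to 9929 CPM in TNF-Tg and 3150 to 3244 CPM in WT. All 12 epithelial markers were lower, beside 23.4% of all tested genes, with sums of 711 to 870 and 1722 to 2051 CPM. In whole tissue, fewer cells of a type and less RNA per cell cannot be told apart, and this holds for every level below.

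Of the 10 factors, 6 were lower in TNF-Tg lungs at an adjusted p below 0.05 and none was higher (quasi-likelihood test of edgeR, with p-values adjusted by Benjamini and Hochberg's method across the 19199 genes). These were Nkx2-1, Foxa1, Foxa2 and Sox2 of the epithelium and Foxf1 and Tbx5 of the mesenchyme. The same test called 23.4% of all tested genes lower and 24.0% higher, 47.4% in either direction. The 3 TNF-Tg lungs lay entirely below the 3 WT lungs for 7 of the 10, the 6 above and Gli1, against 28.2% of all tested genes. Genes with all TNF-Tg lungs above all WT lungs made up 30.5%, and both directions together 58.7%. The median log2 fold change of the 10 was -0.86, beside 0.03 over all tested genes. Summed over the 10 factors, expression was 198 to 256 CPM in the TNF-Tg lungs and 425 to 435 CPM in the WT lungs. Leaving out both TNF-Tg 1 and WT 1, a choice made after seeing the data, left 7 of the 10 past the cutoff, the same 6 and Gli1. That fit called 6064 of 19440 tested genes in either direction.

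**Figure D1:**
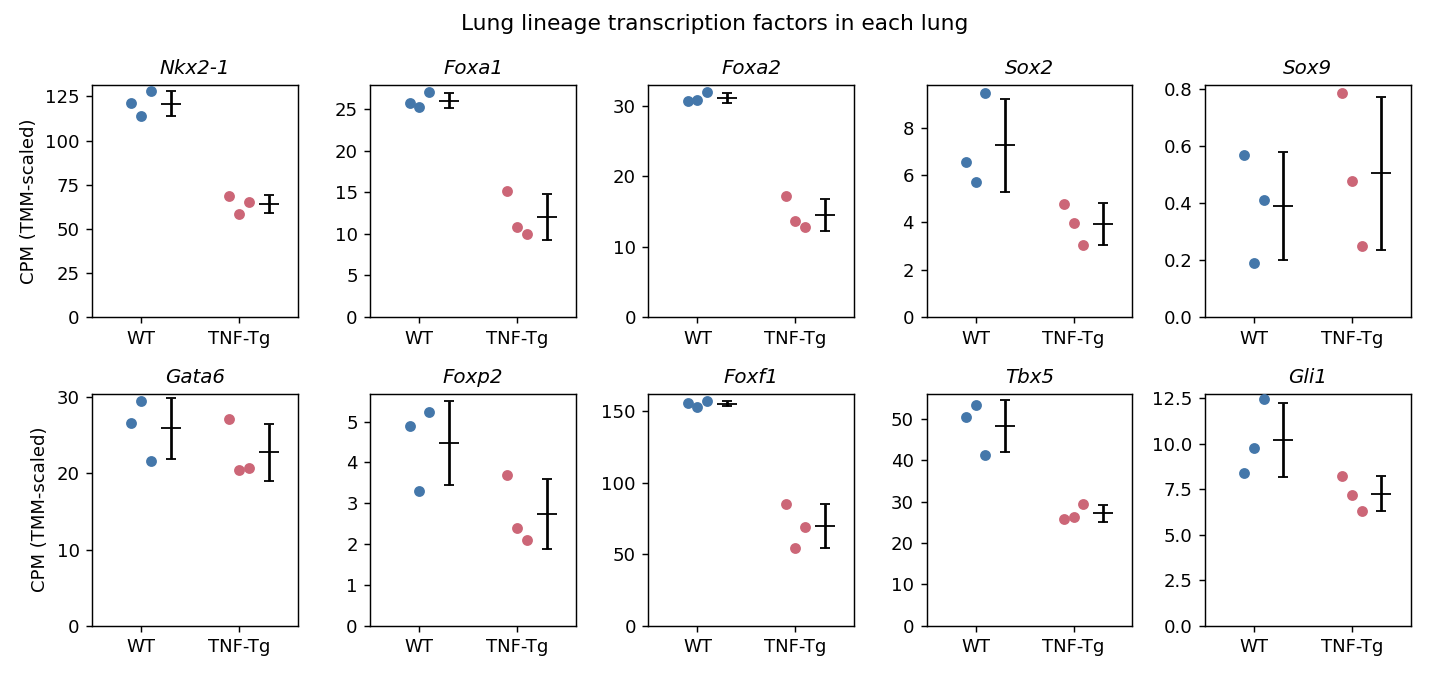
Each panel plots CPM scaled by TMM for 1 factor, with a point for each of the 3 WT and 3 TNF-Tg lungs and, beside them, the mean with an error bar of 1 SD. The groups overlap for Sox9, Gata6 and Foxp2 and are apart for the other 7, with Foxf1 at 155 ± 1.91 CPM in WT and 69.7 ± 15.3 CPM in TNF-Tg.

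Nkx2-1 is the earliest factor of the lung epithelium and stays on in alveolar and secretory cells. It was counted 1573, 1703 and 2091 times in the TNF-Tg lungs and 3837, 3593 and 4361 times in the WT lungs. Scaled to CPM, these counts were 68.5, 58.2 and 65.2 in TNF-Tg and 121, 114 and 128 in WT. The highest TNF-Tg lung was thus well below the lowest WT lung. The mean fell from 120.9 ± 7.13 CPM in WT to 63.9 ± 5.28 CPM in TNF-Tg (SD, n = 3 each), which is 52.9% of the WT mean. The log2 fold change was -0.92 (SE 0.10, 95% interval -1.15 to -0.69, adjusted p = 0.000211, edgeR). Nkx2-1 lies on chromosome 12 at 56531958 to 56536908 on the minus strand (GRCm38, GENCODE M21), and it is also the master factor of the thyroid. Of 5 thyroid markers, 1 was higher (Slc5a5), 1 lower (Tshr) and 1 past neither threshold (Tg), while Pax8 had 0 counts in all 6 lungs. Over all tested genes 24.0% were higher and 23.4% lower. The 5 thyroid markers summed to 10.6 to 17.2 CPM in TNF-Tg and 3.6 to 4.5 CPM in WT, and their part in the Nkx2-1 level was not tested.

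Foxa1 and Foxa2 encode closely related forkhead pioneer factors of endodermal epithelium. Foxa1 had 348, 317 and 320 counts in the TNF-Tg lungs against 814, 800 and 921 in the WT lungs. Foxa2 had 394, 398 and 410 counts against 973, 978 and 1092. For both genes the WT lungs lay close together and all TNF-Tg lungs were below them. The mean of Foxa1 was 12.0 ± 2.78 CPM in TNF-Tg and 26.0 ± 0.898 CPM in WT (SD, n = 3 each), a log2 fold change of -1.12 (SE 0.17, interval -1.50 to -0.74, adjusted p = 0.000965, edgeR). Foxa2 averaged 14.5 ± 2.33 CPM in TNF-Tg and 31.2 ± 0.713 CPM in WT, a log2 fold change of -1.11 (SE 0.13, interval -1.41 to -0.80, adjusted p = 0.000325, edgeR). There were 0.780 to 0.883 Foxa1 counts per Foxa2 count in the TNF-Tg lungs and 0.818 to 0.843 in the WT lungs, and the ranges overlapped (exact two-sided permutation p = 0.7). The remaining paralog, Foxa3, had 3, 5 and 7 counts in TNF-Tg and 3, 0 and 10 in WT and was not tested.

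Sox2, the factor of airway basal, secretory and ciliated cells, was counted far less often. It had 110, 116 and 97 counts in the TNF-Tg lungs and 208, 180 and 323 in the WT lungs. Every TNF-Tg lung was below every WT lung, although WT 3 alone stood high among the WT lungs. The means were 3.92 ± 0.883 CPM in TNF-Tg and 7.25 ± 1.98 CPM in WT (SD, n = 3 each), and the log2 fold change was -0.89 (SE 0.25, interval -1.47 to -0.31, adjusted p = 0.0203, edgeR). This call depended on single lungs, since the adjusted p became 0.0569 without TNF-Tg 2, 0.0635 without TNF-Tg 3 and 0.0524 without WT 3. Squamous epithelium also expresses Sox2, and the part of squamous RNA in the Sox2 level was not tested. Sox2 was at 6.56 CPM in WT 1, the lung with squamous RNA, and at 5.70 and 9.48 CPM in WT 2 and WT 3, and it remained past the cutoff without TNF-Tg 1 and WT 1 together.

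Promoter sequences were held for Nkx2-1, Foxa1, Foxa2 and Sox2, and they are shown because all 4 genes fell and because Nkx2-1, the Foxa factors and Sox factors can bind short known motifs. The windows are the 250 bases before the RefSeq start (GRCm38.p6), written 5′ to 3′ on the gene's own strand. For Foxa1 the window lies inside the longer GENCODE gene, and its last 10 bases, which overlap an exon, were left out. For Sox2 the RefSeq start, at base 34649995, lies upstream of the GENCODE start, at base 34650405. Of the 3 Foxa2 starts in RefSeq the most upstream is shown, and of the windows not shown 1 held a SOX, a GATA and a TATA match and the other none. Capitals mark any match, on either strand, to the letters searched, which were TGTTTAC for forkhead factors, CAAGTG for NKX2 factors, ACAAAG for SOX factors and AGATAA for GATA factors. The core promoter elements searched were the box named for its letters CCAAT and the element TATAAA, and the NF-kB motif was searched as well.
Nkx2-1 (chr12:56536909-56537158, minus strand): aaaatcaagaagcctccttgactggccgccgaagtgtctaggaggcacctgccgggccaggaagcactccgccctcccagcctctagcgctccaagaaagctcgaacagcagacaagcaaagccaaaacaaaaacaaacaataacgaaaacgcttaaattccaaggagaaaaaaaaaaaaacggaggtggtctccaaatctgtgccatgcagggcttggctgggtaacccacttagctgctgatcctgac
Foxa1 (chr12:57546122-57546361, minus strand): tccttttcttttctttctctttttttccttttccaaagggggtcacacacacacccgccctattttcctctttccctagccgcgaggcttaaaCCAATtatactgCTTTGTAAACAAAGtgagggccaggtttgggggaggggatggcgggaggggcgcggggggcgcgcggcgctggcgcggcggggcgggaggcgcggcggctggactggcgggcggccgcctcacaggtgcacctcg
Foxa2 (chr2:148046970-148047219, minus strand): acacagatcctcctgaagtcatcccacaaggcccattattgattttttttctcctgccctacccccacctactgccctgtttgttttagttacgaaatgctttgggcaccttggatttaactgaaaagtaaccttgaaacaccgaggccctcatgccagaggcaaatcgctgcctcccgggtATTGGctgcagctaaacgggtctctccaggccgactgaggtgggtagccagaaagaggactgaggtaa
Sox2 (chr3:34649745-34649994, plus strand): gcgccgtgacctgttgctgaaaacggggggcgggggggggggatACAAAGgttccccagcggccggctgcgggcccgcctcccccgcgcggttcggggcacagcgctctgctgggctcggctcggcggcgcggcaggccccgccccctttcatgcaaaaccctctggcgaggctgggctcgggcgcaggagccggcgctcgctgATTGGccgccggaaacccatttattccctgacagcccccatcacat
The Foxa1 window held the forkhead letters in reverse, from 141 to 135 bases before the start, overlapped on both sides by a SOX match, and a CCAAT box from 157 to 153 bases. A further SOX match of Foxa1 lay in the 10 bases not shown. The Foxa2 window shown held only a reversed CCAAT box, 68 to 64 bases before the start, and Sox2 held the same 46 to 42 bases before the start and a SOX match 206 to 201 bases before it. The Nkx2-1 window held no match to any of the motifs. Of 32851 RefSeq windows of the same length, 3.17% held the forkhead letters, 11.6% NKX2, 16.5% SOX, 9.99% GATA, 33.8% the CCAAT box, 12.4% the TATA box and 5.0% NF-kB. The matches are a description of these letters and do not show that a factor binds there.

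Sox9, the factor of branch tips in the embryo and of cartilage and some airway gland cells later, had the lowest counts of the 10. It had 18, 14 and 8 counts in the TNF-Tg lungs and 18, 6 and 14 in the WT lungs. The groups overlapped, with the highest CPM in TNF-Tg 1 and the lowest in WT 2. The means were 0.504 ± 0.268 CPM and 0.390 ± 0.190 CPM (SD, n = 3 each), with a log2 fold change of 0.33 whose 95% interval ran from -0.91 to 1.56 (adjusted p = 0.643, edgeR). For scale, 3 counts in a library correspond to 0.0880 to 0.131 CPM. Of 8 cartilage markers, 1 was higher (Comp), 1 lower (Chad), 5 were too low to test and Snorc was not among the symbols. The same test called 24.0% of all tested genes higher and 23.4% lower.

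Gata6, a zinc finger factor of distal epithelium that is also expressed in vascular smooth muscle and endothelium, did not pass the test. It had 623, 598 and 665 counts in the TNF-Tg lungs and 845, 933 and 738 in the WT lungs. After scaling for depth these became 27.1, 20.4 and 20.7 CPM in TNF-Tg and 26.7, 29.5 and 21.7 CPM in WT, and the groups overlapped. The means of 22.8 ± 3.79 and 25.9 ± 3.98 CPM (SD, n = 3 each) gave a log2 fold change of -0.19 (SE 0.16, interval -0.56 to 0.18, adjusted p = 0.357, edgeR). Leaving out 1 lung moved this value between -0.37 (without TNF-Tg 1) and -0.092 (without WT 2), and none of these fits passed the threshold. Its paralog Gata5 fell, with 210, 198 and 236 counts against 610, 693 and 693 (log2 fold change -1.41, SE 0.15, adjusted p = 0.000166, edgeR), whereas Gata4 had a log2 fold change of -0.51 (SE 0.26, adjusted p = 0.144). There were 0.318 to 0.396 Gata6 counts per Nkx2-1 count in TNF-Tg lungs and 0.169 to 0.260 in WT lungs. Against Foxf1 the ratios were 0.299 to 0.374 and 0.138 to 0.193. Neither ratio overlapped between genotypes, at an exact permutation p of 0.1, the smallest that 3 against 3 lungs allow, and 0.225 after adjustment over the 9 ratios computed. The ratios were chosen after the values were seen.

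Foxp2, a forkhead repressor of distal epithelium, had 85, 70 and 67 counts in the TNF-Tg lungs and 155, 104 and 178 in the WT lungs. TNF-Tg 1, at 3.70 CPM, lay above WT 2, at 3.29 CPM, so the groups overlapped. Its log2 fold change of -0.72 (SE 0.28, interval -1.37 to -0.07) did not pass the adjusted threshold (adjusted p = 0.0653, edgeR). Without TNF-Tg 1 the adjusted p was 0.0229 and without WT 2 it was 0.0422, and DESeq2 gave 0.0362. Of 6 genes listed as FOXP relatives and partners, 3 were lower and 2 higher, beside 47.4% of all tested genes called in either direction. Foxp1, which acts with Foxp2 in the lung, fell (log2 fold change -0.57, SE 0.13, adjusted p = 0.00747), and so did the corepressor Ctbp2 (-0.35, SE 0.12, adjusted p = 0.0386) and Nkx2-5 (-1.78, SE 0.47, adjusted p = 0.0149), a heart factor with at most 17 counts in any lung. The lung paralog Foxp4 rose (0.35, SE 0.12, adjusted p = 0.0442), and Foxp3, the factor of regulatory T cells, rose most (2.06, SE 0.46, adjusted p = 0.0071, edgeR for all 5). The calls for Foxp4, Ctbp2 and Nkx2-5 were lost without TNF-Tg 1, TNF-Tg 2, WT 1 or WT 2, and that for Ctbp2 also without TNF-Tg 3, with adjusted p up to 0.170, 0.101 and 0.0599 (edgeR).

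Foxf1 is the forkhead factor of lung mesoderm and, in the adult, of capillary endothelium and fibroblasts. It had 1956, 1600 and 2225 counts in the TNF-Tg lungs and 4931, 4846 and 5356 in the WT lungs. The WT lungs agreed closely, at 156, 153 and 157 CPM, while the TNF-Tg lungs were at 85.2, 54.6 and 69.4 CPM and so varied more among themselves. The mean fell to 44.9% of the WT level. The log2 fold change was -1.16 (SE 0.15, interval -1.51 to -0.80, adjusted p = 0.000595, edgeR), close to those of Foxa1 and Foxa2. Its paralog Foxf2 fell as well, with a log2 fold change of -0.89 (SE 0.18, adjusted p = 0.0045, edgeR).

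Tbx5, a T-box factor of lung and heart mesoderm, had 591, 770 and 944 counts in the TNF-Tg lungs and 1596, 1687 and 1409 in the WT lungs. In CPM the TNF-Tg lungs lay together at 25.7, 26.3 and 29.4, below the WT lungs at 50.4, 53.4 and 41.3. The log2 fold change was -0.83 (SE 0.12, interval -1.11 to -0.56, adjusted p = 0.000878, edgeR). The lung T-box paralogs Tbx2 (log2 fold change -1.37, SE 0.13, adjusted p = 8.77e-05) and Tbx3 (-1.28, SE 0.20, adjusted p = 0.00127) fell too, and Tbx4 had a log2 fold change of -0.34 (SE 0.13, adjusted p = 0.0584). Tbx5 and Gata6 are also heart genes, and mouse pulmonary veins carry cardiac muscle. All 8 cardiac muscle markers were lower in TNF-Tg, beside 23.4% of all tested genes. They summed to 322 to 396 CPM against 1155 to 1518 CPM in WT, with none at 0. Their part in the Tbx5 level was not tested.

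Gli1, the effector of hedgehog signalling in mesenchyme, had 189, 211 and 202 counts in the TNF-Tg lungs and 266, 309 and 424 in the WT lungs. The groups did not overlap, but TNF-Tg 1 at 8.23 CPM lay just under WT 1 at 8.39 CPM. The log2 fold change was -0.50 (SE 0.19, interval -0.93 to -0.07, adjusted p = 0.0584, edgeR), so Gli1 did not pass the threshold in the main test. It did in DESeq2 (adjusted p = 0.0337), and without WT 1 (0.0372) or TNF-Tg 1 (0.0495) in edgeR. There were 0.0908 to 0.132 Gli1 counts per Foxf1 count in TNF-Tg lungs and 0.0539 to 0.0792 in WT lungs (exact permutation p = 0.1, adjusted 0.225).

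Of 16 hedgehog genes other than Gli1, 8 fell and none rose, beside 23.4% lower and 24.0% higher over all tested genes. Their median log2 fold change was -0.61, beside 0.03 over all genes, and the share called in either direction was close to the 47.4% of all tested genes. The ligand gene Shh had 72, 54 and 92 counts in TNF-Tg and 202, 206 and 170 in WT (log2 fold change -1.19, SE 0.24, adjusted p = 0.00452, edgeR). The receptor Ptch1, itself a target of the pathway, had 898, 1118 and 1320 counts against 2754, 2805 and 1920 (-0.97, SE 0.17, adjusted p = 0.00205, edgeR). Hhip, a target that traps the ligand, had 110, 139 and 180 counts against 607, 745 and 568 and fell furthest of the list (-1.97, SE 0.17, adjusted p = 5.86e-05, edgeR). Smo, the signal transducer, fell too, together with the coreceptors Boc (-0.84), Cdon (-0.71) and Gas1 (-0.59). The other Gli factors passed in neither direction, with log2 fold changes of -0.04 for Gli2 (SE 0.18, adjusted p = 0.887) and 0.39 for Gli3 (SE 0.26, adjusted p = 0.258). The value of Gli3 ran from 0.14 without WT 2 to 0.59 without WT 3.

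**Figure D2:**
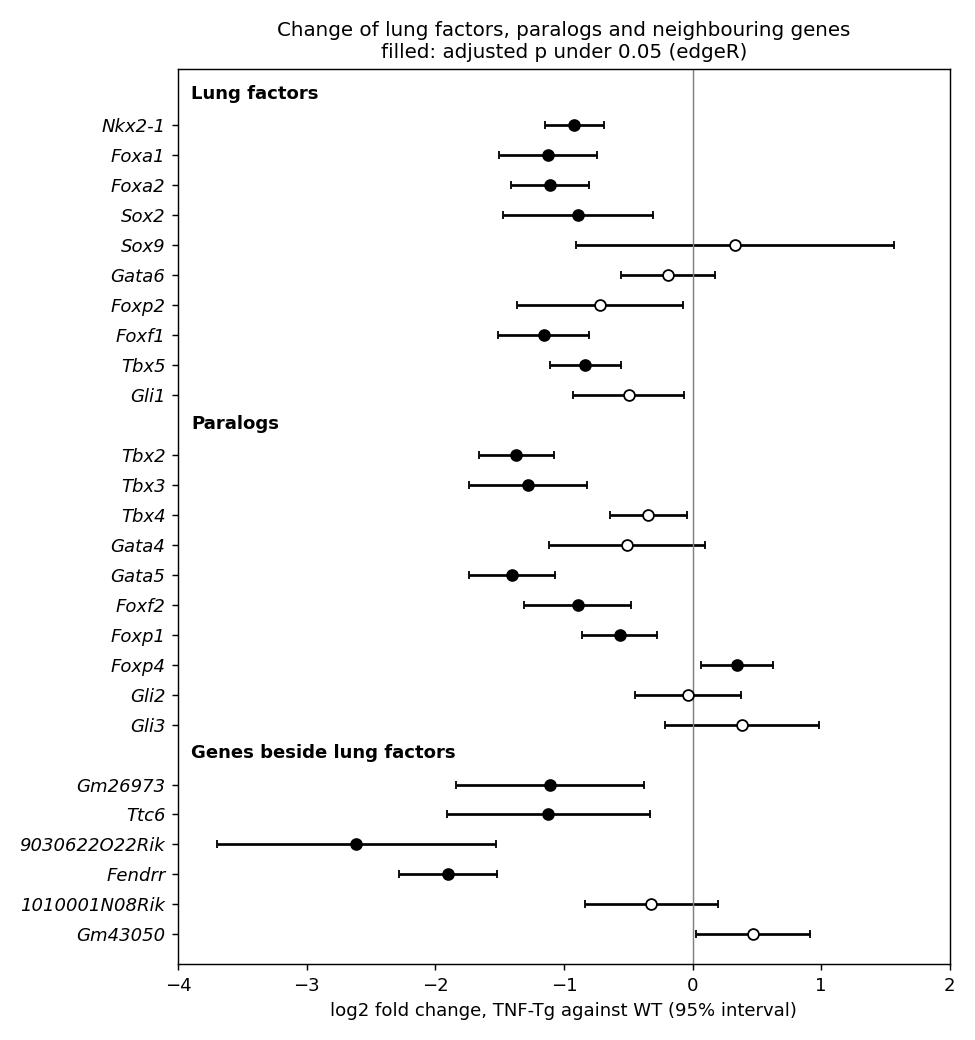
Log2 fold changes (TNF-Tg against WT, horizontal axis) with 95% intervals from edgeR for the 10 factors, 10 of their paralogs and 6 genes whose start lies near a factor's start, filled where the adjusted p was under 0.05. Foxf1, Foxa1 and Foxa2 lie between -1.16 and -1.11, Sox9 and Gata6 cross 0, and Fendrr (-1.90) and 9030622O22Rik (-2.62) lie below the factors beside them.

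Genes whose start lies within 20 kb of a factor's start were examined next, because many lung factors share their locus with a noncoding RNA. Fendrr, the divergent long noncoding RNA that starts 1276 bases from Foxf1 on the opposite strand (chr8:121054882-121083110), had 1713, 2002 and 3226 counts in the TNF-Tg lungs and 8729, 9354 and 11487 in the WT lungs. All TNF-Tg lungs were far below the WT lungs. Its log2 fold change was -1.90 (SE 0.17, adjusted p = 6.75e-05, edgeR), against -1.16 for Foxf1. There were 0.876 to 1.45 Fendrr counts per Foxf1 count in TNF-Tg and 1.77 to 2.14 in WT, with no overlap (exact permutation p = 0.1, the smallest possible, adjusted 0.225). Fendrr and Foxf1 share no exon bases.

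Other loci showed the same direction in part. The noncoding RNA 9030622O22Rik, 6766 bases from the Foxa2 start on the same strand, had 23, 5 and 26 counts in TNF-Tg and 121, 139 and 130 in WT (log2 fold change -2.62, SE 0.47, adjusted p = 0.00254, edgeR). Gm26973, which runs antisense across Nkx2-1 without sharing exon bases, had 17, 44 and 24 counts against 67, 67 and 77 (-1.11, SE 0.32, adjusted p = 0.021, edgeR). Ttc6, a coding gene 17197 bases from Foxa1, had 51, 46 and 27 counts against 86, 119 and 119 (-1.12, SE 0.34, adjusted p = 0.0272, edgeR). The call for Gm26973 was lost without TNF-Tg 1, TNF-Tg 3 or WT 2 (adjusted p up to 0.0635, edgeR) and that for Ttc6 without TNF-Tg 2, WT 2 or WT 3 (up to 0.0816). At Gata6 the antisense RNA 1010001N08Rik had a log2 fold change of -0.32 (adjusted p = 0.272), and at Tbx5 the divergent Gm43050 had 0.47 (adjusted p = 0.0761), so neither passed. The remaining 10 neighbours had at most 9 counts in any lung and were not tested. The strand setting of the counting was not given in the sources used here. Foxf1, Gata6 and Gli1 share 98, 93 and 62 exon bases with an antisense gene of the table (Gm27530, 1010001N08Rik and Arhgap9), and reads there could not be assigned with certainty if strand was ignored.

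Levels of different genes were compared as RPKM, which is the CPM value divided by the gene's exon length in kilobases. In WT lungs the order was Foxf1 (mean 64.3 RPKM), Nkx2-1 (42.5), Foxa2 (13.2), Tbx5 (10.3), Foxa1 (7.82), Gata6 (3.99), Sox2 (3.52), Gli1 (2.04), Foxp2 (0.273) and Sox9 (0.0942). Only Gata6 and Sox2 overlapped among neighbours in this order. In TNF-Tg lungs the order of the means was the same, from Foxf1 (28.9 RPKM) and Nkx2-1 (22.5) through Foxa2 (6.12), Tbx5 (5.81), Foxa1 (3.60), Gata6 (3.50), Sox2 (1.91), Gli1 (1.45) and Foxp2 (0.167) to Sox9 (0.122). Neighbours there overlapped between Foxf1 and Nkx2-1, Foxa2 and Tbx5, Foxa1 and Gata6, Sox2 and Gli1, and Foxp2 and Sox9. The exon length is the union over annotated transcripts, which is long for Foxp2 (16346 bases over 20 transcripts) and lowers its RPKM. With the longest transcript in its place the WT order was unchanged, and in TNF-Tg Foxa2 and Tbx5, and Foxa1 and Gata6, changed places.

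**Figure D3:**
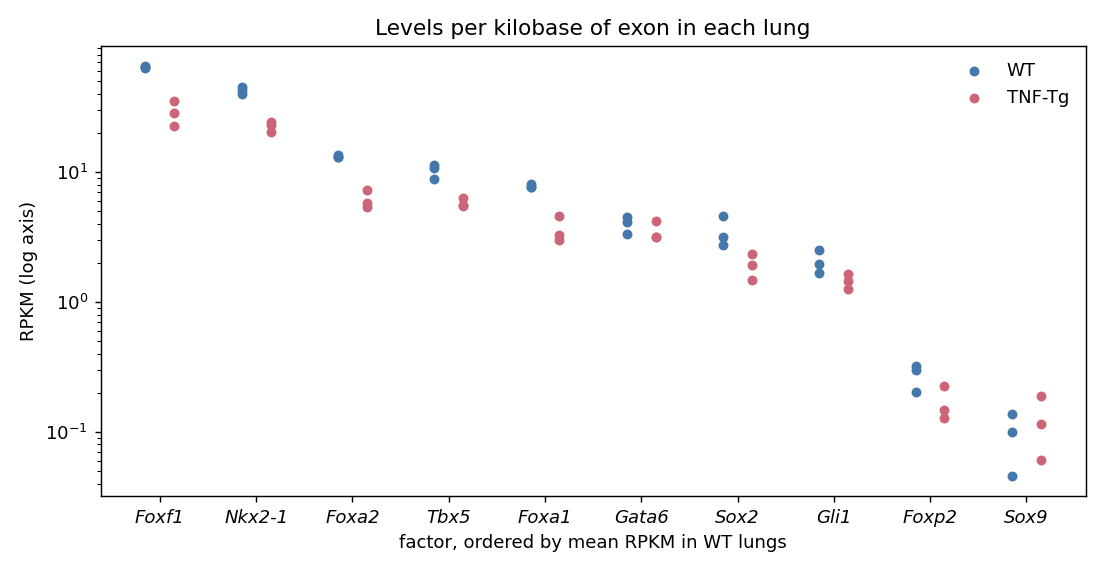
RPKM on a log axis for each of the 10 factors, ordered by their mean in WT, with a point per lung. Foxf1 and Nkx2-1 are highest in both genotypes, at 64.3 and 42.5 RPKM in WT and 28.9 and 22.5 RPKM in TNF-Tg, and Foxp2 and Sox9 are below 1 RPKM in every lung.

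Each factor was then set, lung by lung, against markers of a compartment that expresses it. The value was the factor's log2 CPM minus the mean log2 CPM of 12 markers. Gata6 and Sox9, which other cells express too, were set against epithelial markers only. The mean of the epithelial markers was 1.20 log2 units lower in TNF-Tg lungs (difference -1.20), that of the mesenchymal markers 0.80 lower (-0.80) and that of the endothelial markers 1.27 lower (-1.27), while leukocyte markers were 1.54 higher. Relative to the epithelial markers, Foxa1 differed between genotypes by 0.07 (exact two-sided permutation p = 0.5) and Foxa2 by 0.09 (p = 0.4). The fall of these factors was thus close in size to that of the marker mean. Nkx2-1 was 0.28 higher relative to the markers in TNF-Tg (exact permutation p = 0.1), with values of 0.61 to 1.04 in TNF-Tg and 0.42 to 0.56 in WT. It was 0.15 higher without TNF-Tg 3 and 0.16 higher against the median of the markers (exact permutation p = 0.5). Sox2 differed by 0.34 (exact permutation p = 0.2), Foxp2 by 0.49 (p = 0.1) and Sox9, on few counts, by 1.51 (p = 0.1).

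Gata6 stood 1.02 higher relative to the epithelial markers in TNF-Tg lungs, at -0.90 to -0.61 against -2.14 to -1.43 in WT (exact permutation p = 0.1). Against mesenchymal markers Foxf1 differed by -0.37 (exact permutation p = 0.3), Tbx5 by -0.02 (p = 0.7) and Gli1 by 0.32 (p = 0.4), and against endothelial markers Foxf1 differed by 0.09 (p = 0.8). The difference of Gli1 ran from 0.13 without WT 1 to 0.60 without WT 3, and was 0.78 against the median of the markers. Against the median of the mesenchymal markers the sign turned for Foxf1 (0.082) and Tbx5 (0.44). An exact permutation p of 0.1 is the smallest that 3 against 3 lungs allow, and adjusted over the 11 comparisons no p was below 0.275. The direction depended on the markers for several factors. Against Epcam alone, an epithelial adhesion gene whose own log2 fold change was only -0.43, the differences were -0.49 for Nkx2-1, -0.71 for Foxa1, -0.69 for Foxa2, -0.44 for Sox2 and -0.29 for Foxp2. Gata6 was higher against Epcam also, but by only 0.24 (exact permutation p = 0.5), and Sox9 by 0.73 (p = 0.2). Against Pdgfra alone, a receptor gene of fibroblasts, the differences were -0.56 for Foxf1 (exact permutation p = 0.2), -0.21 for Tbx5 (p = 0.3) and 0.13 for Gli1 (p = 0.9).

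**Figure D4:**
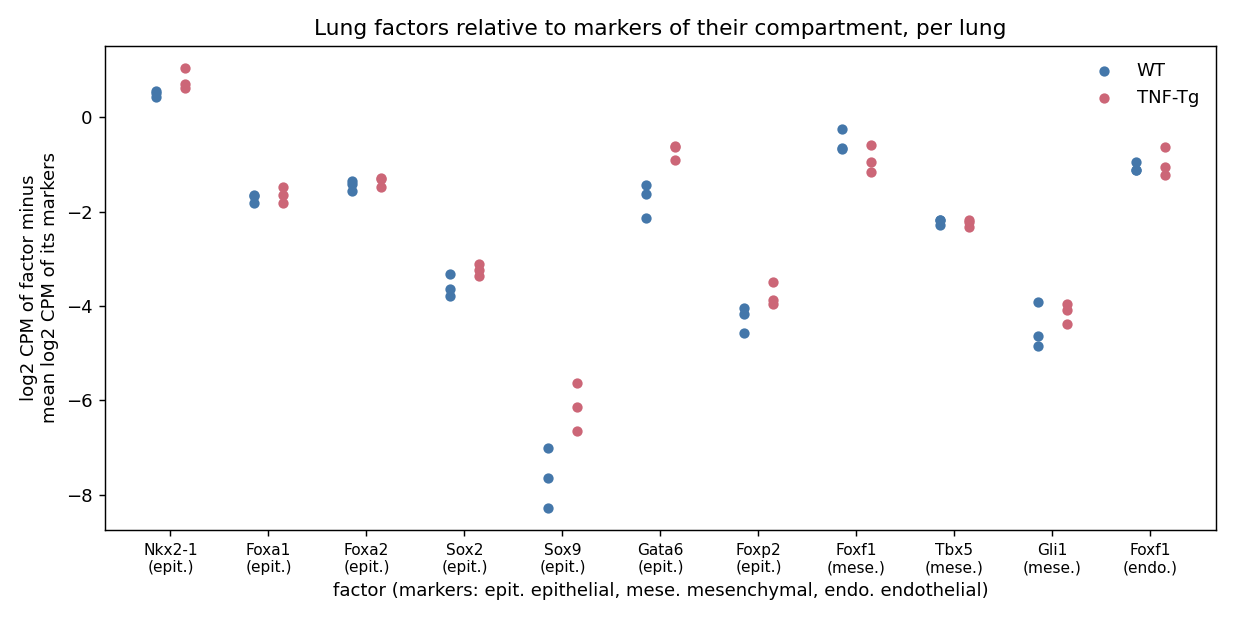
Log2 CPM of each factor minus the mean log2 CPM of 12 markers of a compartment that expresses it (vertical axis, log2 units), a point per lung. Gata6, Nkx2-1, Foxp2 and Sox9 lie higher in the TNF-Tg lungs with no overlap, by 1.02, 0.28, 0.49 and 1.51 on average, while Foxa1, Foxa2, Tbx5 and, against endothelial markers, Foxf1 overlap between genotypes.

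Other transcription factors of the same compartments were counted from the lists. Of 24 other epithelial factors, 23 were tested, 18 fell and 1 rose, with a median log2 fold change of -0.92. Over all tested genes 23.4% were lower and 24.0% higher, with a median of 0.03. They included Hopx of alveolar type 1 cells (-1.60, SE 0.11), and Trp73 (-1.73, SE 0.20) and Foxj1 (-1.50) of ciliated cells. The factor that rose was Cebpa (0.43, SE 0.11), which alveolar macrophages and other myeloid cells also express. The adjusted p of Cebpa was 0.0126, but 0.0631 without TNF-Tg 1, 0.0515 without WT 1 and 0.185 without both (edgeR).

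Of 25 other mesenchymal factors, 20 were tested, 11 fell and 3 rose, with a median of -0.87, beside 23.4% lower and 24.0% higher over all tested genes. Tcf21, a factor of lipofibroblasts, fell furthest (-2.13, SE 0.22), with 356, 312 and 566 counts in TNF-Tg and 1934, 2471 and 1778 in WT, and Osr1 (-1.43, SE 0.28) followed. In contrast, Meox1 (2.02, SE 0.15), Prrx1 (1.21, SE 0.18) and Ebf1 (0.96, SE 0.17), which B cells also express, rose. Of 12 mesenchymal markers 7 were lower and none higher (median -0.73), Npnt, which alveolar epithelium also makes, among them.

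Of 17 endothelial factors 9 fell and 2 rose, with a median of -0.50, where 23.4% of all tested genes were lower and 24.0% higher. Gata2 (-2.05, SE 0.09), Epas1 (-1.74, SE 0.16) and the flow-responsive Klf2 (-1.31, SE 0.18) fell most. Lyl1 (1.58, SE 0.14) and Fli1 (1.09, SE 0.17) rose, and both are also expressed by blood cells. Of 12 endothelial markers 11 were lower and Emcn was higher.

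Signals that pattern the lung around these factors were counted in the same way. Of 19 genes of the FGF and branching list, 11 fell and 3 rose, with a median of -0.46, against 23.4% lower and 24.0% higher among all tested genes. The receptor Fgfr4 had 72, 52 and 67 counts in the TNF-Tg lungs and 1798, 2001 and 1265 in the WT lungs, the largest fall of any listed gene of this pathway (-4.50, SE 0.28, adjusted p = 1.49e-05, edgeR). Fgf10, the mesenchymal ligand that drives branching, fell too, with 102, 97 and 105 counts against 532, 469 and 409 (log2 fold change -1.99). The mesenchymal ligand Wnt2, which acts upstream of Nkx2-1 in the embryo, had 43, 36 and 51 counts against 362, 417 and 469 (-3.04, SE 0.20, adjusted p = 1.87e-05, edgeR), and its epithelial counterpart Wnt7b fell as well (-2.06, SE 0.44). Etv4 (2.64, SE 0.25), Mycn (2.38, SE 0.40) and Id2 (1.15, SE 0.12), which mark the distal tip in the embryo, rose. Sox9, the factor of branch tips, did not pass (0.33, adjusted p = 0.643, edgeR). Etv5, counted among the other epithelial factors, fell (-0.48, adjusted p = 0.0251, edgeR). Lymphoid and myeloid cells express Id2 as well.

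Of 11 target genes of NKX2-1, 5 fell and none rose, with a median of -0.52, beside the 23.4% of all tested genes called lower. Scgb1a1 (-1.77, SE 0.31) and Scgb3a2 (-1.48, SE 0.15), secretoglobins of club cells, and Cldn18, a tight junction gene of alveolar cells (-1.14, SE 0.11), fell most, and Sftpb (-0.88) and Abca3 (-0.89) of type 2 cells fell too. Sftpc, the surfactant gene most specific to type 2 cells, had a log2 fold change of -0.52 (adjusted p = 0.0837), and Sftpa1 (0.09), Sftpd (0.11) and Lamp3 (0.19) did not pass either.

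**Figure D5:**
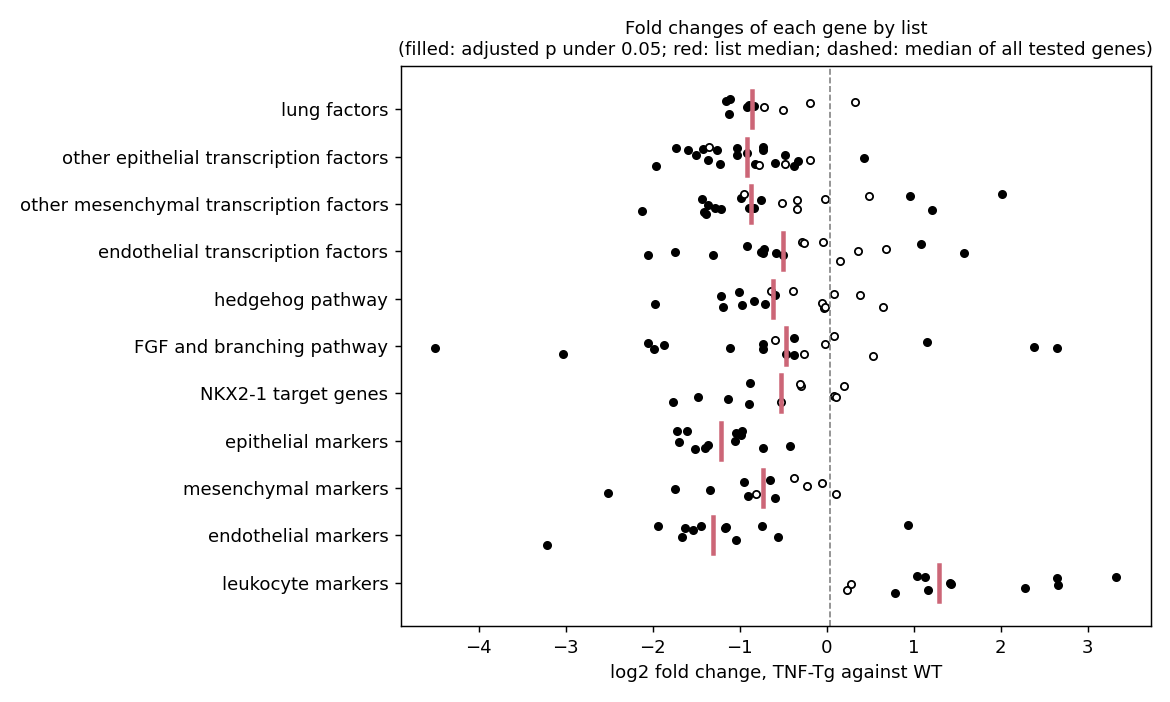
Log2 fold change (TNF-Tg against WT, horizontal axis) of every tested gene of 11 lists, filled where the adjusted p was under 0.05, with the list's median in red and the median of all tested genes, 0.03, dashed. The medians are -0.86 for the 10 factors, -0.92 and -0.87 for other epithelial and mesenchymal factors, -1.21 for epithelial markers and 1.29 for leukocyte markers.

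Finally, the genes with the pattern most like Nkx2-1 and Foxf1 over the 6 lungs were sought among the 14993 genes that averaged 1 or more on the log2 CPM scale. Likeness was the root mean square difference between mean-centred log2 CPM values, so 0 is identity. For Nkx2-1, whose own root mean square about its mean was 0.468, the nearest were Efna1 (0.0383), an ephrin ligand, Ntf5 (0.0396), a neurotrophin, and Atp10a (0.0541), a lipid flippase. Among the other factors Foxa2 was nearest to Nkx2-1, at rank 260, and Foxf1 was at rank 527. For Foxf1, with 0.618 about its own mean, the nearest were Cox6b2 (0.0340), Ppp1r14c (0.0665) and Nt5dc2 (0.0718), while Foxa2 came at rank 21 and Foxa1 at rank 34. Over 6 lungs in 2 groups this likeness includes the difference between genotypes, and it is given as a description.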

How the data were processed

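Total lung RNA of 3 TNF-Tg and 3 WT mice was sequenced by the authors from stranded poly(A) libraries. The authors trimmed the reads with Trimmomatic (version 0.36 per the labels), mapped them to the mouse genome (GRCm38) with STAR (version 2.5.2b) and counted them per gene with featureCounts, and the deposited values are raw counts without normalization. The counting version, annotation and strand setting were not given in the sources used here. Library totals ranged from 25396923 to 32529408 counts.

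All 6 columns were used. After filterByExpr and TMM scaling, genotype was fitted as the sole term in edgeR (version 4.0.16, under R version 4.3.3), and its quasi-likelihood p-values were adjusted across all tested genes by Benjamini and Hochberg's method with a cutoff of 0.05. The standard error was the fold change divided by the square root of F. Log2 CPM used a prior count of 2. Values relative to markers and count ratios were compared by exact two-sided permutation tests. Alternatives included DESeq2 (version 1.42.0), limma-voom (limma version 3.58.1) and leaving out each lung. Code was tested on simulated data.

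The factors, gene lists and tests were chosen with earlier results of these data known. Named genes were the 10 factors, their paralogs, Shh, Ptch1, Hhip, Tnf, the 3 largest rises and falls past the cutoff in each list and the 3 genes most like Nkx2-1 and Foxf1, and further list genes were named after their values were seen. Positions came from GENCODE M21 (GRCm38), matched by symbol for 47139 of 49568 symbols and all 10 factors. Promoters came from RefSeq, which held 4 of the 10. Each library came from a different mouse, and intervals cover the spread between these mice only. Values of a few listed genes are not reported here.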

Additional observations from a re-analysis of the deposited data

How the results depend on the processing

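Nkx2-1, Foxa1, Foxa2, Foxf1 and Tbx5 were lower at an adjusted p below 0.05 in all 16 alternative fits, including leaving out each lung, and Sox2 in 12 of 16. The number of the 10 factors past the cutoff was 8 with DESeq2, 7 with total counts only, 7 with robust dispersion, 5 to 8 when 1 lung was left out, and 6 with limma-voom. Over all genes, DESeq2 called 9134 of 23106, total counts only 8080 of 19199, robust dispersion 9089 of 19199 and limma-voom 9032 of 19199. Leaving out 1 lung called 7347 to 9164 of 19607 to 19707 genes. Requiring a log2 fold change of at least 1 in size as well left 3 of the 10 (Foxf1, Foxa1 and Foxa2, where 12.2% of tested genes were called lower), 10 other epithelial factors, 9 other mesenchymal factors, 5 endothelial factors, 2 FOXP partners, 4 hedgehog genes, 9 FGF and branching genes and 3 NKX2-1 targets, and 4320 of all genes. FOXP partners numbered 3 with total counts only, 3 with the replicate block, 2 without both lungs that stand apart, and 2 to 5 when 1 lung was left out. The other lists changed by less than 1.5 times. Same-numbered mice are different animals, their deviations correlated at -0.149, -0.00429 and -0.242, and the replicate block called 5 of the 10 (Sox2 at adjusted p = 0.0555) and 7686 genes in place of 9096.

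Some directions were not stable, and the cause was not tested. Sox9 ranged from -0.14 (without TNF-Tg 1) to 0.66 when 1 lung was left out, and Gli2 from -0.21 to 0.022, turning positive at 0.022 without TNF-Tg 1, 0.012 without TNF-Tg 3 and 0.0062 without WT 3. Relative to markers, Epcam alone gave -0.49 for Nkx2-1, -0.71 for Foxa1, -0.69 for Foxa2, -0.44 for Sox2 and -0.29 for Foxp2. The median of the markers gave -0.058 for Foxa1, -0.035 for Foxa2, 0.082 for Foxf1 and 0.44 for Tbx5, and Cdh5 alone gave -0.0040 for Foxf1. Leaving out 1 lung gave -0.020 to 0.15 for Foxa1, 0.030 to 0.15 for Foxa2, -0.054 to 0.019 for Tbx5, -0.53 to -0.24 for Foxf1 against mesenchymal markers and -0.082 to 0.21 for Foxf1 against endothelial markers. The order of levels per length in WT kept all 10 places with the longest transcript. At 6 to 18 counts per library, Sox9 had an interval from -0.91 to 1.56, and the parts of depth and of spread between mice in it were not tested.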
